A study of Mus musculus with 6 samples.

Results

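The TRIM genes were followed in the RNA of mouse splenocytes, the mixed cells of the spleen, from wild-type (WT) mice and from mice with a knockout of Top3b (Top3b-KO). Members were the symbols of the deposited count table made of Trim, a number and at most 1 further letter, and 68 of the 56413 symbols met this rule. The study compared the transcriptomes of 3 WT and 3 Top3b-KO libraries of fresh total splenocytes, prepared from total RNA after removal of ribosomal RNA. WT carries Top3b, which encodes topoisomerase III-beta, and Top3b-KO carries its knockout. The labels give no treatment, allele, strain or age, and do not say whether the replicates were separate animals. The p-values therefore measure the spread between these libraries, which may be technical. A lower level in bulk cells cannot be told apart from fewer cells of the type that makes the RNA.

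TRIM proteins share a tripartite motif at the N terminus, usually a RING finger that recruits a ubiquitin-conjugating enzyme, 1 or more B-box zinc fingers and a coiled coil through which they dimerise. The C-terminal domain differs between members and picks the substrate, and a SPRY domain is the most frequent. Many act as E3 ubiquitin ligases, and in immune cells a large subset is known for interferon-inducible antiviral defence. TRIM41 has been linked to Top3b itself, as a ligase that ubiquitylates topoisomerase III-beta trapped on nucleic acid.

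The libraries held 9941014 to 25473404 counts each, with the fewest in Top3b-KO replicate 3. Values below are CPM, the usual unit of counts scaled to library size, after TMM scaling by edgeR, and 3 counts equal 0.119 to 0.303 CPM, a floor that covers counting error only. The labelled cells were checked against marker lists. B cell markers summed to 3212 to 3765 CPM and T cell markers to 1083 to 1247 CPM over the 6 libraries, and the pancreas list to 2.53 to 4.65 CPM. Erythroid markers ranged from 848 to 1838 CPM and neutrophil markers from 428 to 1420 CPM, so these marker sums differed between libraries of the same genotype. The monocyte and macrophage list summed to 507 to 521 CPM in WT and to 451 to 494 CPM in Top3b-KO, without overlap. Among single tested genes 11.0% did not overlap between genotypes either. Log2 fold changes were below 0 for 7 of 7 monocyte and macrophage, 5 of 5 dendritic cell and 6 of 6 B cell markers. They were also below 0 for 6 of 6 cycling, 10 of 10 erythroid, 4 of 5 NK cell and 5 of 7 neutrophil markers. For 7 of 7 T cell markers they were above 0, where 49.1% of all tested genes were above 0. None of these genes passed the edgeR test described below. Their part in the levels of the TRIM genes was not tested. Top3b was at 95.1, 86.9 and 91.0 CPM in the WT libraries and at 51.5, 48.2 and 49.7 CPM in the Top3b-KO libraries. Its log2 fold change (Top3b-KO over WT) was -0.87 (SE 0.071), and the quasi-likelihood test of edgeR gave an adjusted p of 5.78e-06 (Benjamini-Hochberg, over 18716 tested genes). Every knockout library was below every WT library, but RNA counted to Top3b remained.

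No TRIM gene passed this test. A filter on low counts kept 48 of the 68 members, and 0 of the 48 had an adjusted p under 0.05 by edgeR. The share of all tested genes was 0.0107% (0.00534% higher and 0.00534% lower in Top3b-KO). That share is only 2 genes, 1 higher and 1 lower, and the lower gene is Top3b itself. At an unadjusted p under 0.05 there was 1 member, Trim16, higher in Top3b-KO, against 5.52% of all tested genes (1.83% higher and 3.69% lower), while DESeq2 gave 0 members at either limit, where it had 3.33% of all tested genes at an unadjusted p under 0.05 and 6 genes past the adjusted threshold. The median log2 fold change of the 48 members was -0.024, beside -0.0029 over all tested genes. It was above 0 for 20 of the 48, where 49.1% of all tested genes were above 0. The 3 libraries of a genotype lay on the same side of the 3 others for 4 members, against 11.0% of all tested genes. Trim16 and Trim44 were higher in all 3 Top3b-KO libraries, against 5.39% of all tested genes, and Trim13 and Trim69 lower, against 5.63%. The whole family summed to 3163, 3165 and 3252 CPM in WT and to 3198, 3156 and 3262 CPM in Top3b-KO, so the family totals of the genotypes overlapped.

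The size of change that these libraries leave possible can be read from the 95% intervals of the fit. For all 33 tested members with a mean of at least 10 CPM, the interval of the Top3b-KO to WT ratio lay within 1.5-fold in either direction, from 0.729 at the lowest bound to 1.46 at the highest. Among all 48 tested members this held for 38, and 47 lay within 2-fold. The exception to 2-fold was Trim67, a neuronal member, at 0.881 ± 0.180 CPM in WT against 0.625 ± 0.0725 CPM in Top3b-KO (SD, n = 3). Leaving out WT replicate 3 raised the number of members at an unadjusted p under 0.05 from 1 to 7 (14.6% of 48), and the share of all tested genes rose with it to 13.2%. Without that library Trim5, Trim12c, Trim23, Trim28, Trim33, Trim44 and Trim59 were at that p, and the lowest adjusted p of a member was 0.234 by edgeR. Leaving out Top3b-KO replicate 1 gave 2 members, Trim8 and Trim16 (4.17% of 48), against 5.59% of all tested genes. For 24 of 28 TRIM genes named by rule, leaving out some library moved the log2 fold change by over 1.5 times, the exceptions being Trim16, Trim28, Trim34b and Trim44.

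**Figure D1:**
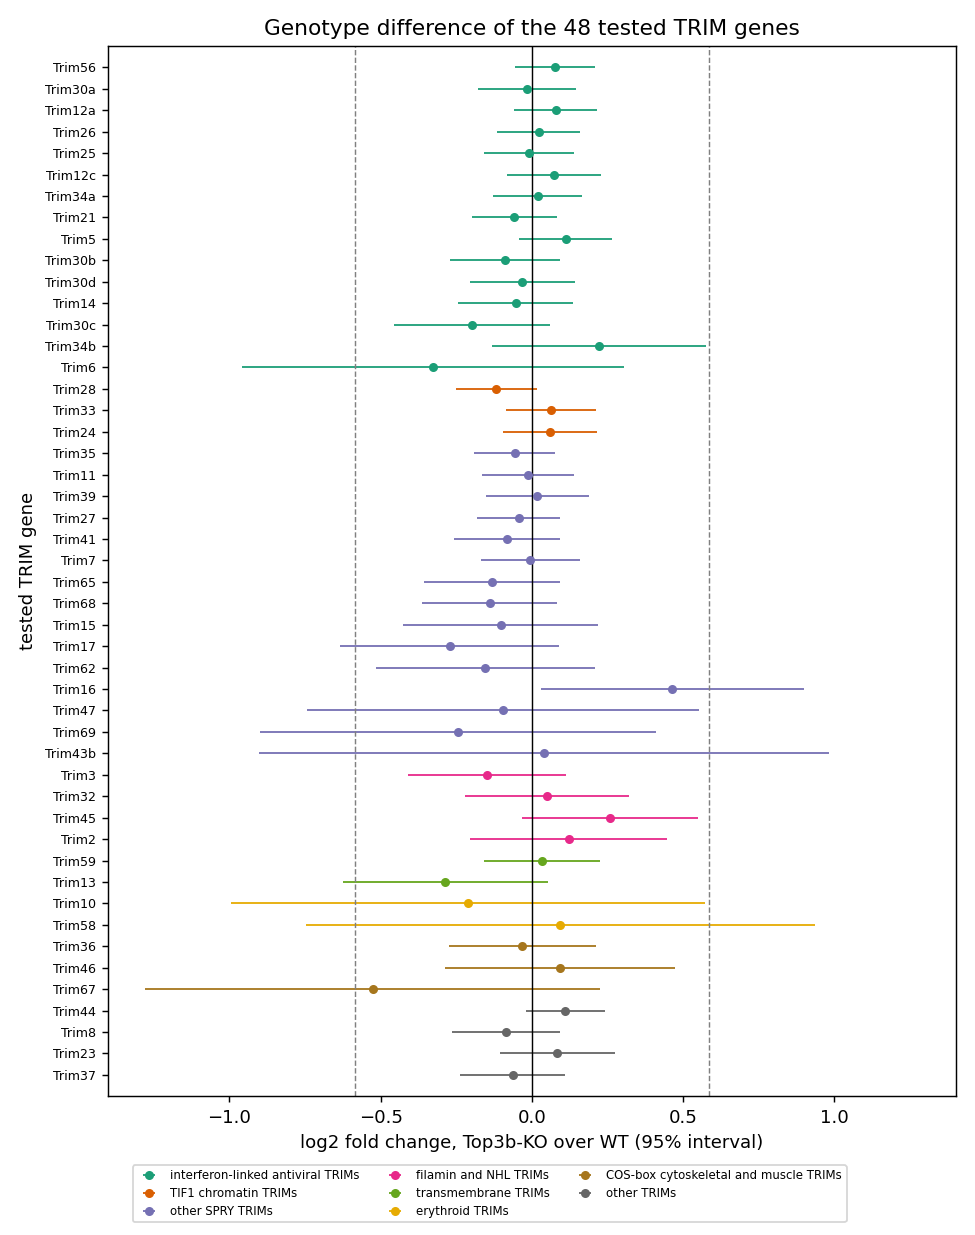
Log2 fold change (Top3b-KO over WT, x axis) of the 48 tested TRIM genes (y axis), grouped and coloured by role, with bars for the 95% interval and dashed lines at 1.5-fold. Trim16 is the member whose interval excludes 0, and wide intervals belong to members of low level such as Trim67, Trim43b and Trim58.

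Trim41, the ligase linked to topoisomerase III-beta, was at 80.3, 73.5 and 66.5 CPM in WT and at 75.8, 64.4 and 67.6 CPM in Top3b-KO. The genotypes overlapped, with the highest level in WT replicate 1 and the lowest in Top3b-KO replicate 2. Means were 73.4 ± 6.87 CPM in WT against 69.3 ± 5.88 CPM in Top3b-KO (SD, n = 3). The edgeR fit gave a log2 fold change of -0.082 (SE 0.083, adjusted p 0.950). The ratio was 0.945 with a 95% interval of 0.837 to 1.07, so a fall of Trim41 RNA as large as that of Top3b lies outside the interval. Leaving out a library moved the log2 fold change by over 1.5 times in 4 cases. The value came to -0.016 without WT replicate 1, -0.024 without Top3b-KO replicate 2, and -0.15 without either WT replicate 3 or Top3b-KO replicate 1, and it missed the threshold in each. Trim7, the nearest TRIM gene to Trim41 in the RefSeq order (GRCm38.p6), encodes a SPRY ligase named for binding glycogenin. It was at 65.0 ± 5.75 CPM in WT against 64.6 ± 2.85 CPM in Top3b-KO (SD, n = 3).

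**Figure D2:**
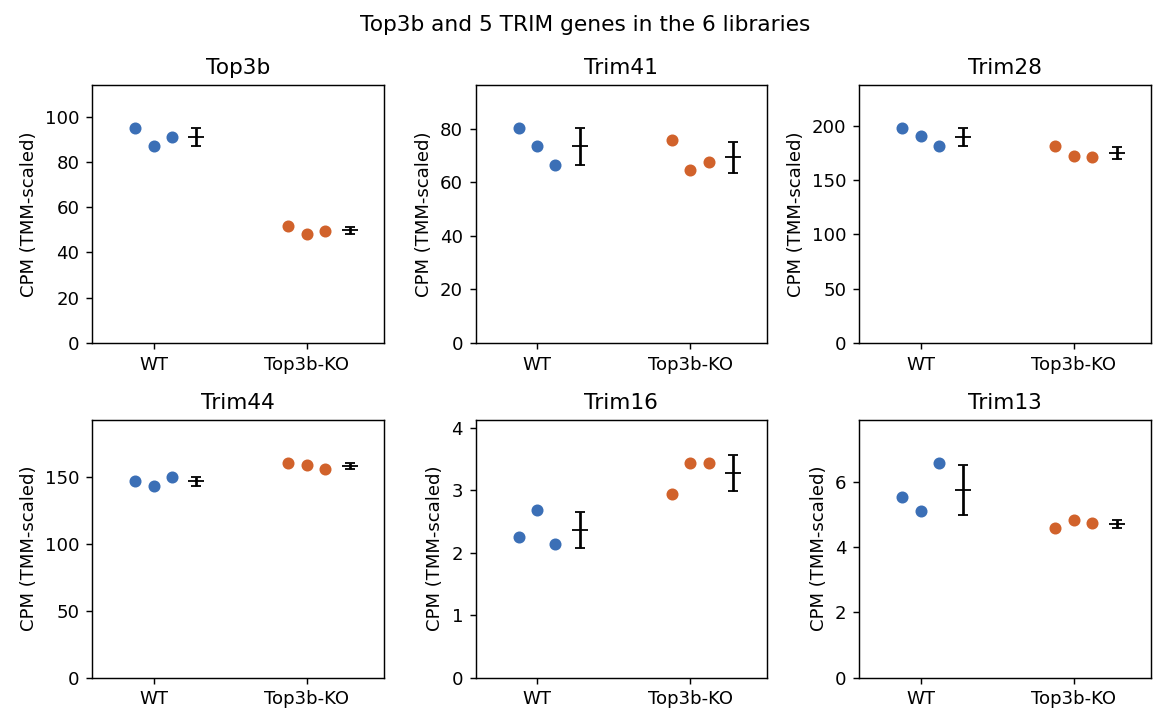
TMM-scaled CPM (y axis, from 0) of Top3b and 5 TRIM genes in the 3 WT (blue) and 3 Top3b-KO (orange) libraries, with black bars for mean and SD. Top3b separates the genotypes widely, Trim41 overlaps, and Trim44, Trim16 and Trim13 separate them by margins of 5.65, 0.261 and 0.281 CPM.

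The list of factors tied to topoisomerase III-beta comprised its partners Tdrd3, Fmr1, Fxr1 and Fxr2 and genes that clear trapped topoisomerases. Of its 8 members, all tested, 0 passed by edgeR (against 0.0107% of all tested genes) and 0 had an unadjusted p under 0.05 (against 5.52%). Log2 fold changes were above 0 for 5 and below for 3, where 49.1% of all tested genes were above 0. The median was 0.015. Fxr1, which encodes a paralogue of the fragile X protein, was at 118 ± 4.05 CPM in WT against 122 ± 3.96 CPM in Top3b-KO (SD, n = 3). Fmr1, the fragile X gene itself, was at 104 ± 11.5 and 110 ± 5.78 CPM in the same order. Both differences were smaller than or close to the spread between libraries.

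TRIM24, TRIM28 and TRIM33 are the transcriptional intermediary factors, nuclear TRIM proteins that end in a PHD finger and a bromodomain. TRIM28, or KAP1, is the corepressor that KRAB zinc finger proteins use to silence retroelements. Trim28 was at 198, 190 and 181 CPM in WT and at 182, 172 and 171 CPM in Top3b-KO. The lowest WT library and the highest Top3b-KO library met at 181 and 182 CPM, so the genotypes overlapped narrowly. The log2 fold change was -0.12 (SE 0.064), with an unadjusted p of 0.0825 and an adjusted p of 0.915 by edgeR. Trim33, which encodes a ligase of SMAD4 needed in blood cell development, was at 149, 148 and 173 CPM in WT and at 161, 164 and 166 CPM in Top3b-KO. WT replicate 3 was above, and the other WT libraries below, every knockout library. Trim24 was at 82.0 ± 5.90 CPM in WT against 85.6 ± 4.67 CPM in Top3b-KO (SD, n = 3), also with overlap. The fourth gene of the group, Trim66, known from testis, had 3 to 8 counts per library and was not tested. Of the 3 genes tested 2 were above 0 and 1 below, and their median log2 fold change came to 0.061.

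TRIM28's silencing partners were read from a list of 8 genes, among them the histone methyltransferase gene Setdb1 and the heterochromatin protein genes Cbx1, Cbx3 and Cbx5. All 8 were tested, 0 passed by edgeR (against 0.0107% of all tested genes) and 0 had an unadjusted p under 0.05 (against 5.52%). Log2 fold changes were above 0 for 7 and below for 1, where 49.1% of all tested genes were above 0. The median was 0.048. Chd3, a remodeller that TRIM28 recruits, was at 667 ± 69.9 CPM in WT against 714 ± 54.3 CPM in Top3b-KO (SD, n = 3). Atf7ip, which encodes the partner of SETDB1, was at 386, 388 and 418 CPM in WT and at 390, 411 and 412 CPM in Top3b-KO. The differences of the means were within 1 SD of the WT libraries.

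The interferon-linked antiviral group held 16 members. It took 49.4 to 52.2% of all TRIM CPM in WT and 50.4 to 52.5% in Top3b-KO, without scaling to gene length. Of the 16 members, 15 were tested. None passed by edgeR (against 0.0107% of all tested genes) and 0 had an unadjusted p under 0.05 (against 5.52%). Log2 fold changes were above 0 for 7 and below for 8, where 49.1% of all tested genes were above 0. The median was -0.0099. Among them 10 genes, Trim6, Trim34a, Trim5, Trim12a, Trim34b, Trim12c, Trim30b, Trim30c, Trim30a and Trim30d, follow each other on chromosome 7 in the RefSeq order (GRCm38.p6), with at most 2 other genes between neighbours. They include the rodent expansion of the TRIM5 retrovirus restriction locus.

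Interferon-regulated promoters often hold an interferon-stimulated response element, so a motif of that type was looked for. The letters GAAA, any 2 bases and GAAA again were searched on both strands (TTTC, 2 bases and TTTC on the other) from 250 bases before to 50 after each RefSeq start site. It occurred in 1079 of 27025 genes with such a window (3.99%), and in 9 of the 53 TRIM genes with one. Of the 15 interferon-linked members with a window 8 had it, Trim5, Trim12a, Trim12c, Trim21, Trim26, Trim30a, Trim30d and Trim34a, and the other holder was Trim2. In Trim12a, Trim21, Trim34a and Trim2 the motif occurred only after the start site. A match is a description of letters only. The stretches with a match before the start site are shown because they separate the family's shared copies from a distinct gene, with the motif in capitals (RefSeq, GRCm38.p6, 5′ to 3′ on the gene's strand).
Trim30a: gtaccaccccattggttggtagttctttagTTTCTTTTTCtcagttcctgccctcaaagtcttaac
Trim30d: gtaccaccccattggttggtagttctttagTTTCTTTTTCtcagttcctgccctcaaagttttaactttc
Trim5: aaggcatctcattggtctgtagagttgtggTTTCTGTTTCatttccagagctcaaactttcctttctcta
Trim12c: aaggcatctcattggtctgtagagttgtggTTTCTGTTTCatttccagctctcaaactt
Trim26: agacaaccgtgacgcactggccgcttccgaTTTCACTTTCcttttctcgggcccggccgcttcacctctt
The Trim30a stretch lies at chr7:104465194-104465259 and the Trim30d stretch at chr7:104507851-104507920, both on the minus strand. They were identical at 65 of the 66 bases compared. Trim5 (chr7:104288116-104288185, minus strand) and Trim12c (chr7:104353350-104353408, minus strand) were identical at 57 of 59. Trim26 (chr17:36836956-36837025, plus strand) lies on another chromosome, and a further match overlaps the printed 1.

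The genotypes overlapped for all 10 of the chromosome 7 genes. Trim30a, an inducible gene whose protein restrains NF-kB signalling, was at 200, 202 and 244 CPM in WT and at 201, 219 and 218 CPM in Top3b-KO. WT replicate 3 was the highest library and the other WT libraries were close to the lowest of the knockout. The log2 fold change was -0.016 (SE 0.077), but leaving out WT replicate 3 gave 0.082 and leaving out Top3b-KO replicate 1 gave 0.031. Trim30d, which shares the printed stretch with Trim30a but for 1 base compared, was at 63.3, 66.7 and 78.1 CPM in WT and at 64.7, 67.9 and 71.5 CPM in Top3b-KO, again highest in WT replicate 3. Trim30b was at 65.9, 69.6 and 82.0 CPM in WT and at 62.9, 68.0 and 74.3 CPM in Top3b-KO. Trim30c, the least abundant of the 4, was at 12.3, 11.4 and 14.0 CPM in WT and at 11.7, 11.0 and 9.91 CPM in Top3b-KO (log2 fold change -0.20, SE 0.123, adjusted p 0.915 by edgeR, and -0.11 without WT replicate 3). All 4 Trim30 genes thus had their highest value in WT replicate 3.

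Trim12a was at 195, 210 and 213 CPM in WT and at 208, 218 and 228 CPM in Top3b-KO, and Trim12c at 111, 110 and 132 CPM in WT and at 120, 123 and 128 CPM in Top3b-KO. For Trim5, related to the primate retrovirus restriction factor, the values were 66.1, 73.6 and 75.4 CPM in WT and 73.8, 79.6 and 79.1 CPM in Top3b-KO. Its log2 fold change was 0.11 (SE 0.073, adjusted p 0.915 by edgeR), and the genotypes overlapped slightly. Without WT replicate 1 it was 0.054. Trim34a was at 110 ± 7.66 CPM in WT against 111 ± 5.33 CPM in Top3b-KO, and Trim34b at 4.38 ± 0.475 and 5.12 ± 0.475 CPM (SD, n = 3). These copies share sequence, which makes their separate counts uncertain. Of all 100-base windows of Trim34b transcripts 30.5% also occur in Trim34a, and 21% of Trim34a windows occur in Trim34b. For Trim5 11.7%, for Trim12c 8.05%, for Trim30a 4.41% and for Trim30d 4.57% of windows occur in another gene. The sources used here do not say how shared reads were counted.

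The level of the chromosome 7 genes was set beside a list of 8 interferon response genes, such as Isg15, Rsad2 and Mx1. The 10 TRIM genes summed to 821, 859 and 961 CPM in WT and to 853, 908 and 930 CPM in Top3b-KO. The interferon list summed to 240, 295 and 309 CPM in WT and to 257, 262 and 297 CPM in Top3b-KO. Both sums were lowest in WT replicate 1, second lowest in Top3b-KO replicate 1 and highest in WT replicate 3, and in both the genotypes overlapped. Single genes of the interferon list differed in their order. Isg15, Oas1a and Mx1 were highest in WT replicate 3, but Irf7 and Rsad2, the most abundant, in WT replicate 2. Ifit1 was highest in Top3b-KO replicate 2, and Ifit3 and Usp18 in Top3b-KO replicate 3. The part of the interferon response in the level of the TRIM genes was not tested.

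**Figure D3:**
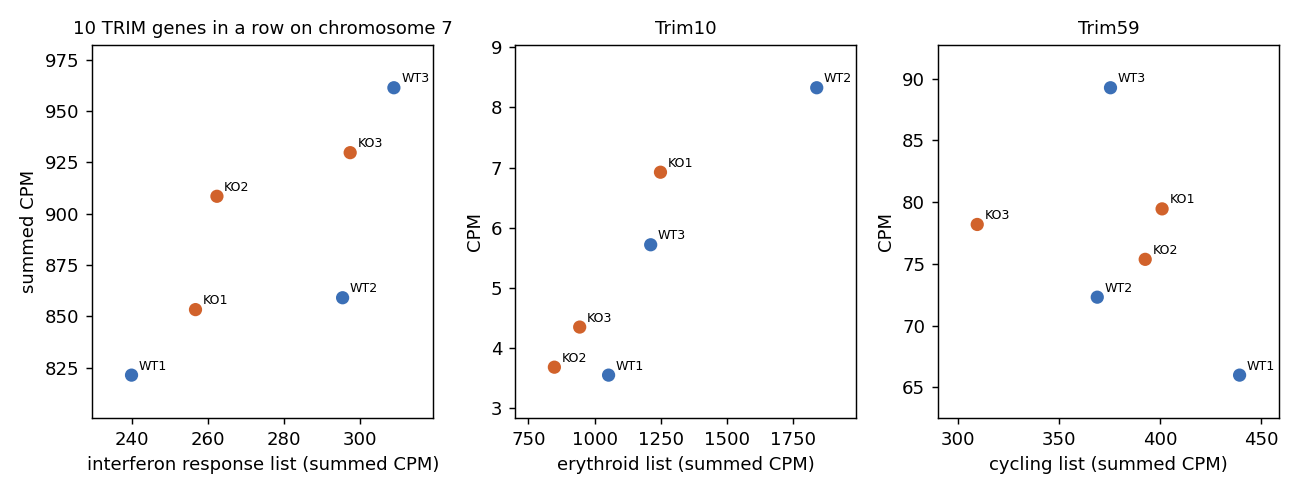
Left, summed CPM of the 10 chromosome 7 TRIM genes (y axis) against that of the interferon response list (x axis); middle, Trim10 CPM against the erythroid list; right, Trim59 CPM against the cycling list, each point being a library (WT blue, Top3b-KO orange). WT3 is highest on both axes on the left, and WT2 is highest on both axes in the middle.

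The remaining interferon-linked members lie outside the chromosome 7 run of neighbouring genes. Trim56, known for promoting STING and RNA sensing pathways, had the most counts of all TRIM genes, with 280, 286 and 276 CPM in WT and 294, 285 and 310 CPM in Top3b-KO. The log2 fold change was 0.076 (SE 0.063), and Top3b-KO replicate 2 lay within the WT range. Without Top3b-KO replicate 3 it was 0.044. Trim25, the ligase of the RNA sensor RIG-I, was at 155 ± 10.8 CPM in WT against 154 ± 10.5 CPM in Top3b-KO (SD, n = 3). Trim26 was at 156 ± 6.51 and 159 ± 7.56 CPM, and Trim21, whose protein binds antibody on viruses that enter the cytosol, at 87.6 ± 3.11 and 84.1 ± 2.32 CPM. Trim14, which lacks a RING finger and acts at the mitochondrial antiviral complex, was at 63.8 ± 6.69 and 61.4 ± 6.47 CPM. None of these differences exceeded the spread of the libraries by the test. Trim38 had 1 to 5 counts per library. Trim6, which belongs to the run, ranged from 0.983 to 1.82 CPM.

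Genes that work with the antiviral TRIM proteins were read from a list of 21 symbols, of which 18 were in the table and 3 were older names. All 18 were tested, 0 passed by edgeR (against 0.0107% of all tested genes) and 0 had an unadjusted p under 0.05 (against 5.52%). Log2 fold changes were above 0 for 9 and below for 9, where 49.1% of all tested genes were above 0. The median was -0.0025. Vcp, an unfoldase that extracts ubiquitylated proteins, was at 242 ± 6.56 CPM in WT against 246 ± 2.90 CPM in Top3b-KO (SD, n = 3). Tab2, which encodes an adaptor of the TAK1 kinase and a known TRIM30 target, was at 162 ± 2.16 and 158 ± 7.38 CPM. The list of TRIM genes under other symbols had 4 tested members of 5, with 0 past the threshold by edgeR, 0 at an unadjusted p under 0.05 and a median of -0.0073. In it Pml, the organiser of PML nuclear bodies, was at 221 ± 26.9 CPM in WT against 202 ± 18.8 CPM in Top3b-KO. Mefv, the gene of pyrin, was at 16.7 ± 2.35 and 16.0 ± 1.31 CPM.

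The other SPRY members, Trim41 among them, numbered 21, of which 15 were tested. By edgeR 0 passed, and 3 were above 0 and 12 below, where 49.1% of all tested genes were above 0. The median log2 fold change was -0.082, beside -0.0029 over all tested genes. Without WT replicate 3 the median was -0.15 and without WT replicate 1 it was -0.018. Trim16, which lacks a RING finger and acts in the clearing of damaged lysosomes, was at 2.26, 2.69 and 2.14 CPM in WT and at 2.95, 3.45 and 3.44 CPM in Top3b-KO. Every knockout library was above every WT library. The log2 fold change was 0.46 (SE 0.207), with an unadjusted p of 0.0374 and an adjusted p of 0.879 by edgeR, and it rests on 34 to 87 counts per library. In the GENCODE transcripts 3.01% of its windows also occur in Fbxw10.

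Trim35, whose protein acts on the kinase PKM2, was at 122, 120 and 116 CPM in WT and at 111, 117 and 117 CPM in Top3b-KO. Trim11, linked to the clearance of misfolded proteins, was at 108, 108 and 96.7 CPM in WT and at 103, 96.8 and 111 CPM in Top3b-KO. Both overlapped between the genotypes. Trim65, a ligase of the RNA sensor MDA5, was at 51.9, 39.5 and 40.1 CPM in WT and at 44.6, 36.6 and 38.6 CPM in Top3b-KO, and was highest in WT replicate 1. Without that library its log2 fold change went from -0.13 to 0.0054. Trim68 was at 17.3 ± 1.35 CPM in WT against 15.6 ± 0.955 CPM in Top3b-KO, and its log2 fold change came to -0.14 (SE 0.107), or -0.075 without WT replicate 2. Trim17, known for promoting neuronal death, was at 6.72, 6.82 and 5.34 CPM in WT and at 4.22, 5.82 and 5.77 CPM in Top3b-KO. Its log2 fold change was -0.27 (SE 0.172, adjusted p 0.915 by edgeR), and 16.4% of its transcript windows also occur in the histone gene Hist3h2a. Without Top3b-KO replicate 1 the fold change of Trim17 was -0.11. The other tested genes of the group, Trim27, Trim39, Trim15, Trim62, Trim47, Trim69, Trim43b and Trim7, had log2 fold changes between -0.24 and 0.039. Trim69 was at 1.16, 0.983 and 1.01 CPM in WT and at 0.860, 0.951 and 0.809 CPM in Top3b-KO, without overlap but on only 8 to 24 counts per library.

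Trim44 leads the members that were put in no role group. Its protein has a ubiquitin protease type zinc finger in place of a RING finger and is known to stabilise substrates. It was at 147, 143 and 150 CPM in WT and at 161, 159 and 156 CPM in Top3b-KO, so that all 3 knockout libraries were above all 3 WT libraries. The log2 fold change was only 0.11 (SE 0.062), a ratio of 1.08 with a 95% interval of 0.987 to 1.18, and an adjusted p of 0.915 by edgeR. Trim8, a regulator of cytokine and NF-kB signalling, was at 128, 122 and 110 CPM in WT and at 129, 102 and 107 CPM in Top3b-KO. Its highest and lowest libraries were both knockout. Trim37, a centrosome and peroxisome ligase, was at 35.0 ± 1.32 CPM in WT against 33.4 ± 1.85 CPM in Top3b-KO. Trim23, which carries an ARF GTPase domain, was at 40.7 ± 4.47 and 43.0 ± 3.13 CPM (SD, n = 3). Of the 10 genes in this remainder 4 were tested, 2 above 0 and 2 below, with a median log2 fold change of 0.0098.

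The filamin and NHL group holds members with a filamin domain, with NHL repeats, which bind RNA or protein, or with both. Of its 5 genes 4 were tested, 3 above 0 and 1 below, with a median log2 fold change of 0.085. Trim45 was at 10.4, 9.51 and 7.60 CPM in WT and at 10.3, 10.7 and 12.2 CPM in Top3b-KO. WT replicate 3 was the lowest and Top3b-KO replicate 3 the highest library, and the log2 fold change was 0.26 (SE 0.138, adjusted p 0.915 by edgeR). Without WT replicate 1 it was 0.35, where Trim45 was the single member at an unadjusted p under 0.05 (2.08% of 48, against 5.30% of all tested genes), and without WT replicate 3 it was 0.14. Trim3, a growth-limiting member known from brain, was at 14.1 ± 1.76 CPM in WT against 12.7 ± 1.29 CPM in Top3b-KO. Trim32, mutated in a limb-girdle muscular dystrophy, was at 10.8 ± 0.616 and 11.3 ± 1.56 CPM (SD, n = 3). The developmental gene Trim71 had 2 counts over all libraries.

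TRIM13 and TRIM59 are anchored in membranes by a C-terminal transmembrane segment. Trim13, an endoplasmic reticulum ligase linked to autophagy, was at 5.55, 5.11 and 6.60 CPM in WT and at 4.59, 4.83 and 4.75 CPM in Top3b-KO. The genotypes did not overlap. The log2 fold change was -0.29 (SE 0.161), with an unadjusted p of 0.0925 and an adjusted p of 0.915 by edgeR, on 47 to 122 counts per library, and without WT replicate 3 the fold change was -0.18. Trim59 was at 66.0, 72.3 and 89.3 CPM in WT and at 79.5, 75.4 and 78.2 CPM in Top3b-KO, so the WT libraries bracketed the knockout. Because Trim59 is known to be high in dividing cells, its level was set beside a list of 6 cycling markers such as Mki67. That list summed to 439, 369 and 376 CPM in WT and to 401, 393 and 309 CPM in Top3b-KO, and was highest in WT replicate 1, where Trim59 was lowest. Mki67 and Top2a made up most of the sum. Bub1 was highest in WT replicate 3 (10.4 CPM), as Trim59 was, and the other genes of the list in WT replicate 1. The part of dividing cells in the level of Trim59 was not tested.

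Of the tested members with a mean of at least 1 CPM, the erythroid genes varied most between libraries of the same genotype. TRIM10 is needed for terminal red cell differentiation and TRIM58 promotes the loss of the nucleus by acting on dynein. Trim10 was at 3.55, 8.33 and 5.72 CPM in WT and at 6.92, 3.68 and 4.35 CPM in Top3b-KO, and Trim58 at 0.452, 1.77 and 0.817 CPM in WT and at 1.35, 0.951 and 0.809 CPM in Top3b-KO. WT replicate 2 was the highest and WT replicate 1 the lowest library for both genes. Within genotypes the SD of log2(CPM + 0.5) was 0.50 for Trim10 and 0.48 for Trim58, beside a median of 0.12 over the tested members. The median level of those members was 52.2 CPM, whereas Trim10 had 43 to 169 and Trim58 only 7 to 33 counts per library. These SDs include counting error, which is larger at few counts. Their log2 fold changes were -0.21 (SE 0.340) and 0.094 (SE 0.400). Without WT replicate 2 they were 0.12 and 0.75, and without WT replicate 1 they were -0.47 and -0.26. The list of 10 erythroid markers, among them Hbb-bs, Alas2 and Slc4a1, summed to 1053, 1838 and 1212 CPM in WT and to 1248, 848 and 944 CPM in Top3b-KO. Its 2 highest libraries, WT replicate 2 and Top3b-KO replicate 1, were also the 2 highest for both TRIM genes. The sum was lowest in Top3b-KO replicate 2, and Hbb-bs, at 635, 1106 and 753 CPM in WT, made up most of it. Klf1 (3.36 CPM) and Ermap (14.0 CPM) were highest in WT replicate 1, where both TRIM genes were lowest. The other markers of the list were highest in WT replicate 2. All 10 markers had counts, and the part of red cell precursors in the level of Trim10 and Trim58 was not tested. Trim47, next in spread at 0.44, was at 2.45, 1.51 and 1.26 CPM in WT and at 1.88, 1.82 and 0.809 CPM in Top3b-KO. It had 8 to 46 counts per library.

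**Figure D4:**
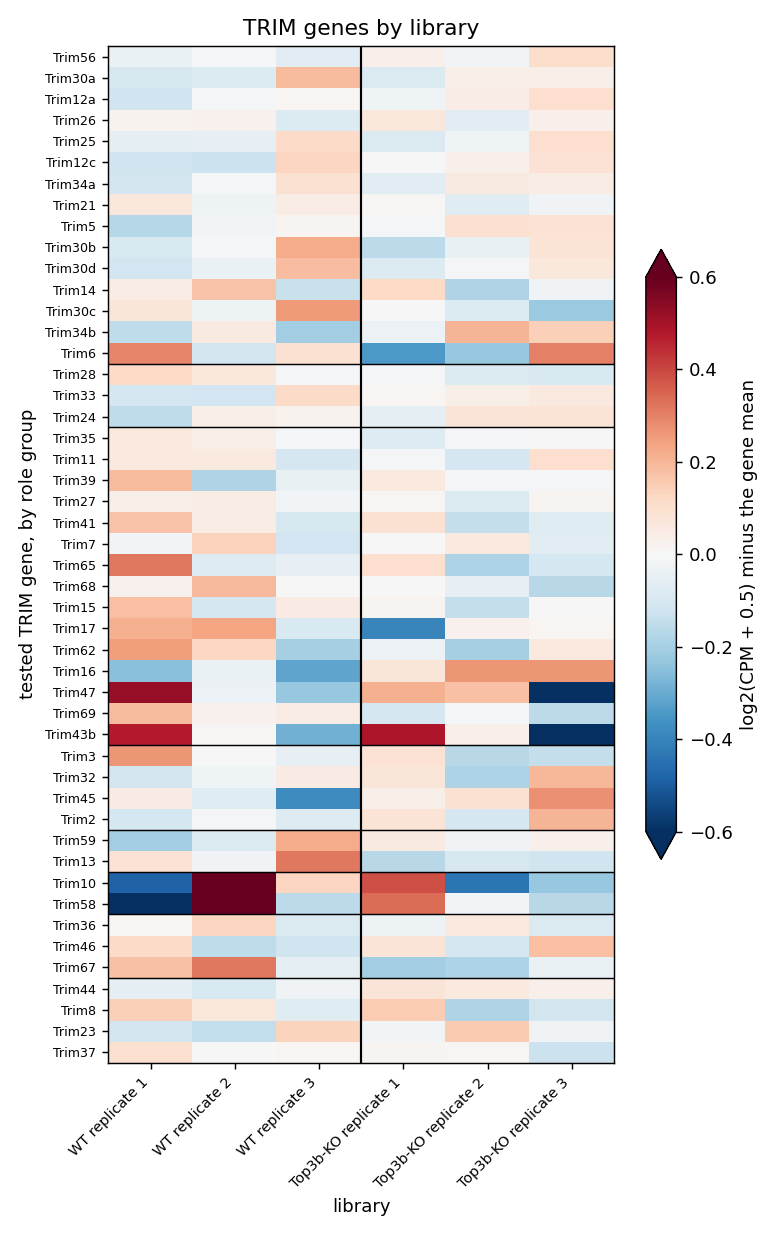
Deviation of each tested TRIM gene (rows, by role group) from its own mean over the 6 libraries (columns) in log2(CPM + 0.5), with the colour scale ending at 0.6 in either direction and a vertical line between the genotypes. The strongest colours are in the rows of Trim10 and Trim58, where WT replicates 1 and 2 deviate in opposite directions, and in Trim47 and Trim43b.

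The COS-box and muscle members bind microtubules or the sarcomere and had low levels. Of 8 genes 3 were tested, 1 above 0 and 2 below, with a median log2 fold change of -0.032. Trim36 was at 12.8 ± 1.01 CPM in WT against 12.4 ± 0.664 CPM in Top3b-KO, and Trim46, which bundles microtubules in the axon, at 3.99 ± 0.464 and 4.31 ± 0.480 CPM (SD, n = 3). The muscle gene Trim63, known as MuRF1, had 0 counts in every library, which allows up to 0.119 CPM in the deepest library and 0.303 CPM in the shallowest.

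The 20 untested members reached at most 0.910 CPM in any library. No count was seen for Trim52, Trim61 and Trim63, and 12 of the 20 had 8 counts or fewer over all 6 libraries. The other 8, with 15 to 44 counts, were Trim9, Trim38, Trim40, Trim43a, Trim43c, Trim66, Trim72 and Trim75. Trim75 had 3, 1 and 8 counts in WT and 11, 12 and 9 counts in Top3b-KO. Trim80 had counts only in Top3b-KO replicates 1 and 2, with 4 and 3. These 2 genes were chosen after their values were seen, and at this depth no difference can be read from them.

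Between genes, levels were compared per kilobase of exon length in WT. Trim30a led with 52.3 ± 6.04 CPM per kb, above Trim28 at 45.7 ± 2.01 and Trim34a at 42.4 ± 2.96 (SD, n = 3). The libraries of Trim30a did not overlap those of Trim28, whereas those of Trim28 and Trim34a did. As 21% of Trim34a windows also occur in Trim34b, the separate level of Trim34a is uncertain. Trim12a at 35.7 ± 1.71 and Trim8 at 32.4 ± 2.46 CPM per kb followed and overlapped each other. Trim41 was 15th of 68 at 20.9 ± 1.96 CPM per kb and overlapped both its neighbours in the order, Trim59 and Trim5. In Top3b-KO, Trim30a was at 51.8 ± 2.51, Trim28 at 42.1 ± 1.39 and Trim41 at 19.7 ± 1.67 CPM per kb. For members at 10 CPM or more the median SD of log2(CPM + 0.5) within genotypes was 0.098, the same as the 0.098 over all 9669 tested genes at that level.

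**Figure D5:**
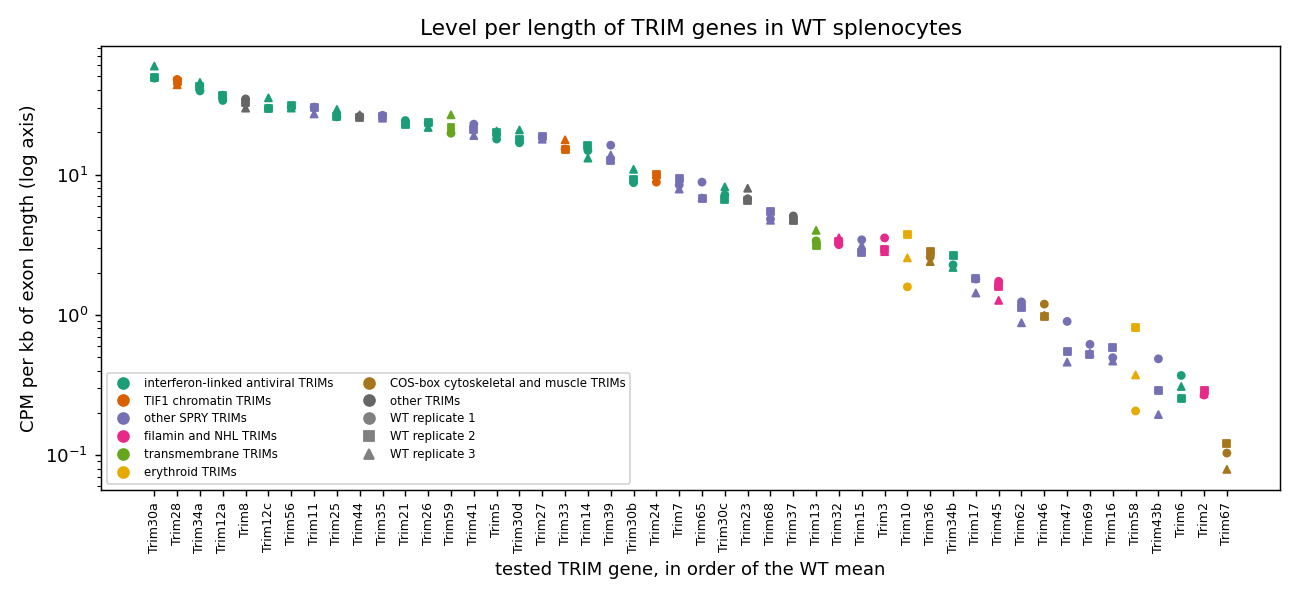
CPM per kilobase of exon length (log axis) of the 48 tested TRIM genes in the 3 WT libraries (marker shapes), in order of their mean and coloured by role group. Trim30a is highest, and members of the interferon-linked group hold 3 of the first 4 places.

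The ubiquitin cascade that TRIM ligases draw on was read from a list of 21 genes, all tested. None passed by edgeR (against 0.0107% of all tested genes) and 0 had an unadjusted p under 0.05 (against 5.52%). Log2 fold changes were above 0 for 14 and below for 7, where 49.1% of all tested genes were above 0. The median was 0.020. Ube2d3, a conjugating enzyme that many RING ligases use, was at 504 ± 64.4 CPM in WT against 535 ± 12.3 CPM in Top3b-KO. Rps27a, which encodes ubiquitin fused to a ribosomal protein, was at 405 ± 16.4 and 407 ± 41.6 CPM (SD, n = 3).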

How the data were processed

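Total RNA of 3 WT and 3 Top3b-KO splenocyte libraries was sequenced after ribosomal RNA removal. The authors deposited expected counts per gene symbol. Alignment used STAR and mm39, per the submitters' processing notes. The counter, its strand setting and its annotation are not stated in the sources used here. The labels name a pair of library kits, a pair of sequencers and differing read lengths, so which of these each library had is not settled, and a difference in them between libraries could not be tested. Reads of overlapping or near-identical genes cannot be assigned with certainty.

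The deposited counts were rounded to whole numbers (72 symbols, none a TRIM gene, had fractions). Genes kept by filterByExpr (18716) were tested by edgeR's quasi-likelihood test (version 4.0.16, R 4.3.3) with TMM scaling, robust dispersion and genotype alone in the model, with two-sided p-values, Benjamini-Hochberg adjustment and a threshold of 0.05. Standard errors were worked out from each log2 fold change and the F statistic of that test, and intervals of 95% were built from them. An interval that excludes 0 therefore restates an unadjusted p under 0.05. Errors are SDs over 3 libraries. The test was checked on simulated counts. DESeq2 1.42.0, limma 3.58.1 (voom), other scalings and filters, a replicate block and leaving out each library were alternatives.

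Named genes were Top3b, Trim41, members past the threshold, the 6 with the smallest p in each direction (at least 1 CPM), the 2 most abundant of each role group, the 5 highest per length, the 3 with the largest spread, and the 2 most abundant of each pathway list. Other members named were chosen after their values were seen. The members and lists were chosen with earlier results of these data known. Exon lengths and transcripts came from GENCODE M21, where all 68 members matched. Promoters (53 members) and gene order came from RefSeq GRCm38.p6. Those builds differ from mm39. The R-loop assay named in the design was not analysed here.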

Additional observations from a re-analysis of the deposited data

How the results depend on the processing

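No TRIM gene passed the threshold under any of the 14 alternatives, and Top3b passed under all. The number of members at an unadjusted p under 0.05 was 1 by edgeR (5.52% of all tested genes), 2 when genes of low count were kept (Trim16 and Trim80, against 5.11%), 0 by DESeq2 (against 3.33%), and 0 to 7 when a library was left out (against 3.58% to 13.2%). Members without overlap between genotypes numbered 4, and 6 to 16 when a library was left out, where between 18.0% and 30.8% of all tested genes did not overlap. Leaving out a library moved the median log2 fold change of the members between -0.057 and -0.0024. By group it ranged from 0.019 to 0.19 for filamin members, -0.041 to 0.061 for the interferon-linked group, -0.36 to 0.44 for erythroid members and -4.5e-04 to 0.085 for the TIF1 genes. With no filter the median was 0.10 for the other TRIM genes and -0.29 for the COS-box members, where more genes of few counts were tested.

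Of 28 named TRIM genes 18 kept their sign throughout. The rest changed sign when a library was left out, with log2 fold changes of -0.22 to 0.0054 (Trim65), -0.023 to 0.17 (Trim32), -0.069 to 0.082 (Trim30a), -0.069 to 0.040 (Trim11), -0.087 to 0.027 (Trim36), -0.56 to 0.12 (Trim10), -0.26 to 0.75 (Trim58), -0.060 to 0.17 (Trim59), -0.033 to 0.069 (Trim34a) and -0.28 to 0.23 (Trim47). The cause was not tested. With the replicate number as a block, 0 members passed and 41 genes did in all, against 2, and Trim41 was at -0.086. WT and Top3b-KO libraries of the same number had deviations that correlated at 0.185, -0.0136 and 0.0138. The first value was the highest of all pairs, whereas WT replicate 2 correlated best with Top3b-KO replicate 3 (0.0926). These values do not settle whether the numbers pair the libraries, and the main fit left the numbers out. Under 10 CPM, 5 of 15 intervals lay within 1.5-fold, and their width also holds the spread between libraries, as for Trim10 (SD 0.50) beside Trim2 (SD 0.11) at a similar level.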
